A study of Mus musculus with 6 samples.

Results

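The tripartite motif (Trim) family was followed through the chromatin accessibility lists of this study. It was taken as 53 Trim genes and Pml, 54 members among the 21951 protein-coding genes of GENCODE M21. A peak was assigned to a member when it overlapped the gene body or the 20 kb on either side, on the mm10 assembly. Members were taken by name, with earlier results of these data known. Trim proteins are named for a RING finger, B-box zinc fingers and a coiled coil, and most of them act as ubiquitin ligases, which attach ubiquitin to other proteins and so set their stability or activity. Many members are switched on by interferon and act in antiviral sensing, in which they adjust the signals that lead to NF-κB and interferon genes. Others regulate transcription, muscle protein turnover or microtubules.

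M-MDSCs, the monocytic kind of myeloid-derived suppressor cell, were sorted as CD11b+ Ly-6C hi Ly-6G- cells from Hepa 1-6 tumors, a mouse hepatoma line grown orthotopically in the liver of female C57BL/6 J wild-type mice. Mice received vehicle, MS-275 or CXD101 daily by intraperitoneal injection, both inhibitors at one dose. Both compounds inhibit HDAC1-3, which are class I histone deacetylases, and so keep acetyl marks on histones. Animals with a high share of MDSCs in blood had been selected for treatment, so they stand for that state only. Open DNA was tagged by a transposase (ATAC-seq) in 6 libraries, 2 for each of the 3 groups, and whether a library is 1 mouse is not given in the sources used here. The authors pooled the libraries of a group before peaks were called, so no value has a spread between replicates and no test over samples could be made.

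Each of the 6 lists named 1 group as treated and another as control, and its peaks are sites where the first had more signal. Here "MS-275 gained" means MS-275 over vehicle and "MS-275 lost" the reverse, with CXD101 named likewise. A further pair compared the inhibitors directly. The lists held between 2 and 8480 peaks, and both inhibitor groups were 1.14 times as deep as vehicle. The lists show differences and no levels of unchanged sites, so a member without a peak is one at which no difference passed a q-value of 0.05, not one with closed chromatin. The study counts more peaks for each inhibitor than these lists hold, so a site absent here is absent from these lists only. All 6 neutrophil markers (Ly6g, S100a8, S100a9, Cxcr2, Mpo and Elane) had an MS-275 gained peak, as did 4 of 7 M-MDSC markers (Cx3cr1, Itgam, Ly6c1 and Ly6c2) and 2 of 4 T cell markers (Cd3d and Cd3e), beside 18.6% of all protein-coding genes. Cx3cr1 and Itgam also had a peak in both lost lists, Itgam, Ly6c1 and Ly6g had one in the MS-275 over CXD101 list, and B cell, NK cell and hepatocyte markers had none in any list. Neighbouring markers can share a peak under the window rule, so these counts are not independent. The part of other cell types in the results on members was not tested.

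Most gained peaks at Trim genes were from MS-275, whose gained list held 8480 peaks beside 284 for CXD101. All protein-coding genes showed the same skew, with 18.6% reached by the MS-275 list and 0.961% by the CXD101 list. An MS-275 gained peak lay at 18 of the 54 members (33.3%), and the same rule gave 18.6% of all protein-coding genes. The 18 were Pml, Trim6, Trim7, Trim8, Trim12c, Trim13, Trim17, Trim27, Trim30a, Trim30b, Trim44, Trim46, Trim55, Trim63, Trim66, Trim67, Trim69 and Trim71. Within the gene bodies alone the count was 5 members (9.26%) beside 9.99% of all genes, so the members stood above the background only when flanking DNA was counted. When the nearest transcription start site (TSS) had to be the member's own, the count was 10 members (18.5%) beside 12.9%. The members were close to other genes in length, with a median of 18.4 kb beside 17.4 kb. Their windows held 7.87 MS-275 gained peaks per Mb, beside 4.51 per Mb over the windows of all protein-coding genes. These are descriptions of 1 pooled comparison, and neighbouring members can share a peak.

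In promoters, meaning the 5 kb before any transcription start of the gene, MS-275 gained peaks lay at 6 members (11.1%), beside 5.92% of all genes. They were Trim6, Trim13, Trim27, Trim44, Trim67 and Trim69. CXD101 gained peaks lay at 1 member (1.85%), beside 0.961% of all genes, and the single peak was also in a promoter (0.241% of all genes), that of Trim6. MS-275 lost peaks lay at 2 members (3.7%), beside 2.9%, and CXD101 lost peaks at 3 members (5.56%), beside 3.62%. Neither lost list had a peak in a member's promoter, where the shares of all genes were 0.528% for MS-275 and 0.724% for CXD101. MS-275 over CXD101 peaks lay at 3 members (5.56%), beside 6.62%, and in the promoters of 2 (3.7%), beside 1.54%. No member had a CXD101 over MS-275 peak, a list that reached 0.0137% of all genes and 0% of their promoters. Apart from the MS-275 gained list, these counts were of 3 members or fewer.

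**Figure D1:**
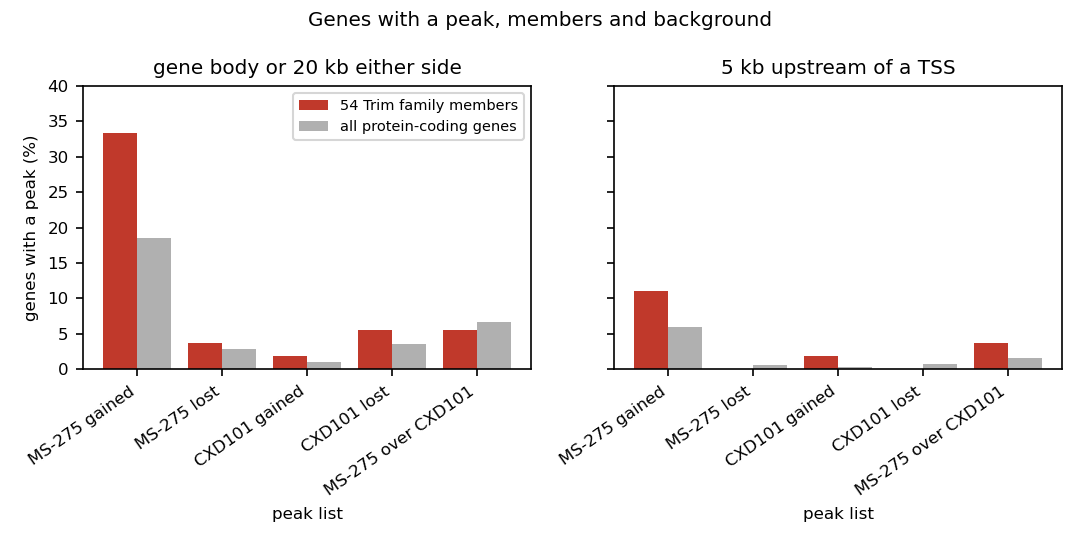
Percent of genes with a peak in each list, for the 54 members and for all protein-coding genes. The members stand at 33.3% in the MS-275 gained list beside 18.6% of all genes, and the other lists differ by few members.

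**Figure D2:**
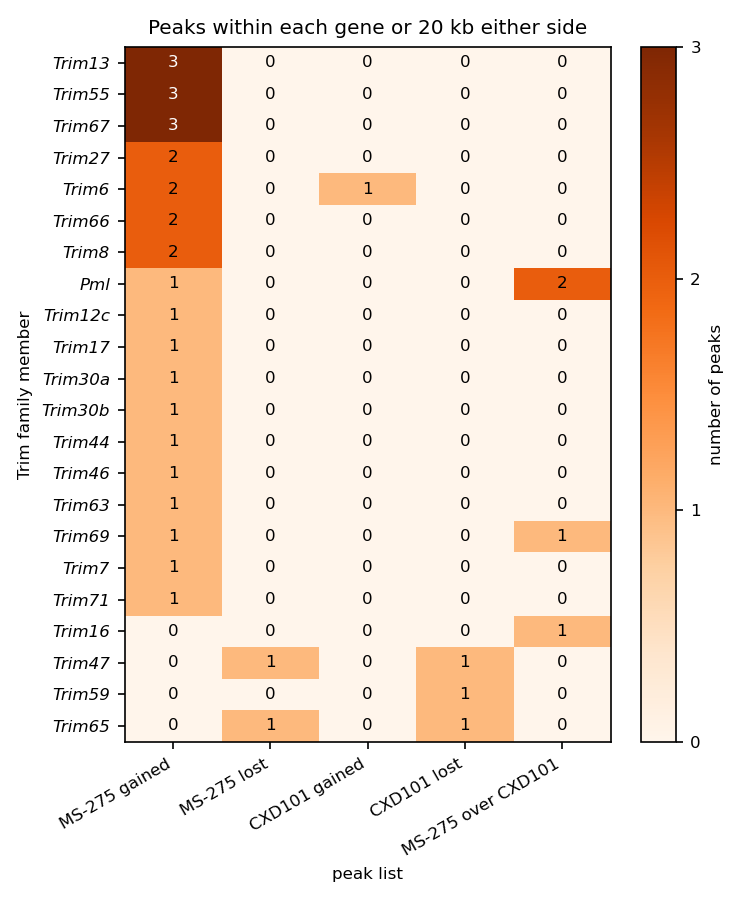
Number of peaks at each of the 22 members with a peak, by list (columns), where color and number give the count. MS-275 gained peaks make up most of the plot, and 5 members (Trim6, Trim47, Trim65, Trim69 and Pml) are in 2 lists.

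In all, 22 members had a peak in some list and 32 had none. The 27 MS-275 gained peaks had folds over vehicle from 1.82 to 4.68, with a median of 2.81 beside 2.88 for the whole list. Their −log10 p-values had a median of 7.78, beside 10.3 for the list. The tags behind each peak were recovered from its fold and p-value and are given as a pileup at vehicle depth (at CXD101 depth for the direct lists, unless said otherwise), with the exact 95% Poisson interval for the treated group. The median level was 40.2 in MS-275 and 13.0 in vehicle. At all 27 summits the lower bound of the MS-275 interval was above the vehicle level, which is how a peak is chosen. These intervals cover counting error only, and the vehicle level is the largest of several local averages.

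**Figure D3:**
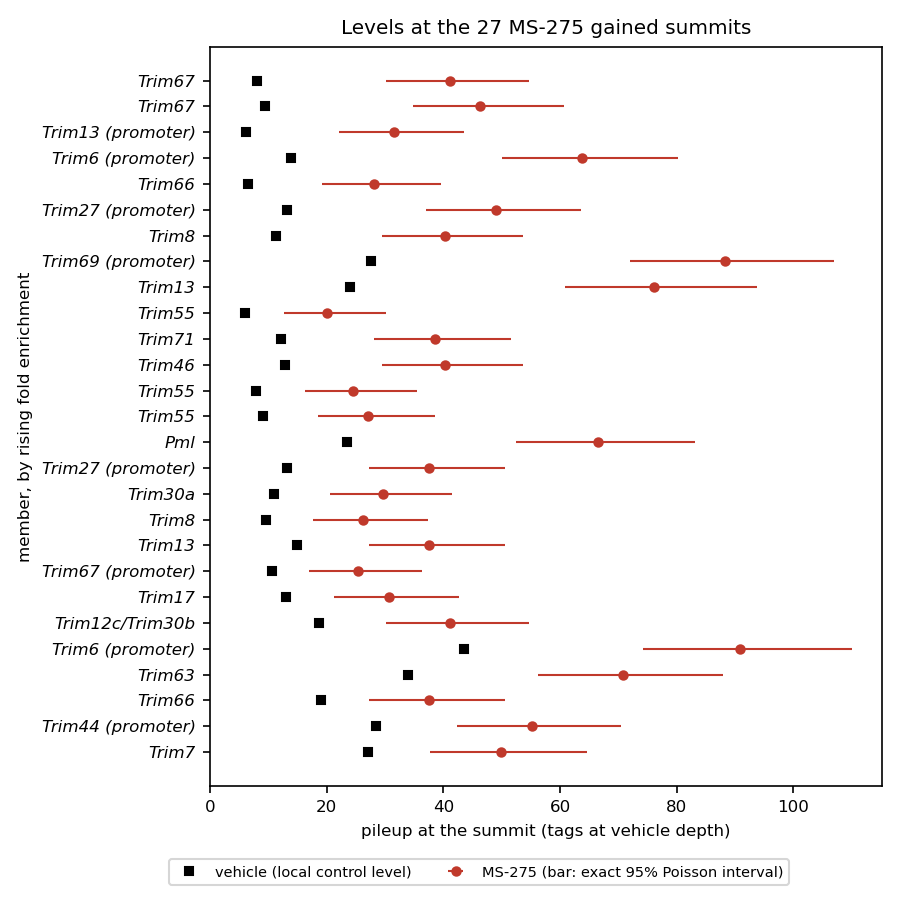
Pileup at the 27 MS-275 gained summits, in tags at vehicle depth, with circles and exact 95% Poisson intervals for MS-275 and squares for the vehicle level. The Trim6 intron and Trim69 sites have the highest MS-275 levels, and the lowest vehicle levels are 6.0 at a Trim55 intron site and 6.20 at the Trim13 promoter site.

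The sequences of 6 sites are given because they carry the clearest promoter gains or the sites that are in 2 lists. Each is the plus strand of mm10 from 100 bp before to 100 bp after the MS-275 gained summit. Capitals mark an AP-1 match (TGANTCA) at Trim6 and a C/EBP match (TTGCNNAA) at Trim27, and the other 4 hold no match to the 7 motifs searched.
Trim6 upstream, chr7:104217833-104218033: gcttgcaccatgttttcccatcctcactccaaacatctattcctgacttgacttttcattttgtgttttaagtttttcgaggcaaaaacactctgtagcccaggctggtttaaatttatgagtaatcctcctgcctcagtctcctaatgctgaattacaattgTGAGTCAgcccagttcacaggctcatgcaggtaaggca
Trim6 intron, chr7:104218995-104219195: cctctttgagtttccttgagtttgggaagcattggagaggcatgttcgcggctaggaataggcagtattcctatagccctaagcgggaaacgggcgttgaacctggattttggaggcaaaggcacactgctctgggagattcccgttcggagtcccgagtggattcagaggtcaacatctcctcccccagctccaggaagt
Trim27, chr13:21178563-21178763: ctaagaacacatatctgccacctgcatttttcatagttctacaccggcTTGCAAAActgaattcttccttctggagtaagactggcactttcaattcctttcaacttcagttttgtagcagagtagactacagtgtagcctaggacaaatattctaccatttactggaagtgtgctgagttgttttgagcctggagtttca
Trim13, chr14:61597879-61598079: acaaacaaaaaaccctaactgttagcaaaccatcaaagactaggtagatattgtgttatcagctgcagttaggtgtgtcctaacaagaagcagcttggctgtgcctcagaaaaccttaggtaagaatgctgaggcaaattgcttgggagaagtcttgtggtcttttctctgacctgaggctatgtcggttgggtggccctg
Trim69, chr2:122156219-122156419: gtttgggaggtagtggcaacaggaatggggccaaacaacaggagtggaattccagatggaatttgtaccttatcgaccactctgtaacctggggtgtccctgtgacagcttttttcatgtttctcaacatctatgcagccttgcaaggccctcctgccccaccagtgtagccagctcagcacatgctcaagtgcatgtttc
Pml, chr9:58269187-58269387: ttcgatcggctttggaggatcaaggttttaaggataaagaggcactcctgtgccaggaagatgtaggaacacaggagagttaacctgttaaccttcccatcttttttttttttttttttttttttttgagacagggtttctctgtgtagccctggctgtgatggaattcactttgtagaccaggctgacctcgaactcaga

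The members of interferon and antiviral signalling came first, and 7 of these 20 had an MS-275 gained peak (Pml, Trim6, Trim8, Trim12c, Trim13, Trim30a and Trim30b), beside 18.6% of all genes and 33.3% of all members. Trim12c and Trim30b shared 1 peak. Trim6, which builds free ubiquitin chains that activate the kinase IKKε, had the highest −log10 p-value of the members' MS-275 gained peaks. Trim6 (ENSMUSG00000072244.11) lies on the plus strand at chr7:104218793-104235152. Its upstream peak (chr7:104217794-104218029) had its summit 860 bp before the gene start. The level there was 63.8 (50.0 to 80.3, from 73 tags) in MS-275 and 13.8 in vehicle, a fold of 4.37 with a −log10 p of 22.0 and a −log10 q of 17.3. It ranked 543 of the 8480 peaks by p-value. No CXD101 list held this site.

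The second Trim6 peak was the only member site in both gained lists, of which the CXD101 list held 284 peaks. Its MS-275 summit lay in the first intron, 302 bp inside the gene (chr7:104218911-104219223), and the CXD101 summit was 64 bp away (chr7:104218929-104219198). The level was 90.9 (74.3 to 110) in MS-275 and 79.1 (63.6 to 97.3) in CXD101. The vehicle level was 43.6 in the first comparison and 43.4 in the second, which used the same vehicle libraries. The folds were 2.06 (−log10 p 9.60, −log10 q 6.29) and 1.81 (−log10 p 6.38, −log10 q 2.79). The intervals of both inhibitors overlapped, and the direct comparison called no peak there, which does not show that the compounds act alike. The intron site had 8 CpGs and 53.7% GC in its window, whereas the upstream site had 1 CpG and 42.8% GC. The site met the promoter rule through an alternative TSS.

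Trim13, an endoplasmic reticulum ligase that takes part in protein degradation there, had 3 MS-275 gained summits. Its promoter summit (chr14:61597871-61598070) lay 268 bp before the start of the gene, ENSMUSG00000035235.13. The level there was 31.5 (22.0 to 43.6, 36 tags) in MS-275 and 6.20 in vehicle, a fold of 4.51 with a −log10 p of 12.7 and a −log10 q of 8.98. A stronger summit by p-value lay 8503 bp upstream, in a peak interval with another summit at 8184 bp. At the former the level was 76.1 (60.9 to 93.8, 87 tags) against 24.0 in vehicle, a fold of 3.08 with a −log10 p of 17.2 and a −log10 q of 13.0. The fold was thus higher at the start of the gene and the absolute level higher at the distal site.

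Pml, the scaffold of the nuclear bodies named for it, had MS-275 gained signal far from its start. The site (chr9:58269182-58269392) lay 19501 bp upstream of the gene, ENSMUSG00000036986.16, close to the edge of the window, and the nearest TSS was that of Stoml1. The level was 66.5 (52.4 to 83.2, 76 tags) in MS-275 and 23.4 in vehicle, a fold of 2.76 with a −log10 p of 12.8 and a −log10 q of 9.10. The direct list had the same site, at 2.47-fold (−log10 p 11.7, −log10 q 7.84), with a CXD101 level of 26.0 at vehicle depth. A second direct peak (chr9:58266700-58266945), 17008 bp upstream, stood at 78.5 (62.2 to 97.9, 79 tags) in MS-275 and 25.0 in CXD101 at CXD101 depth, a fold of 3.06 with a −log10 p of 17.2 and a −log10 q of 12.5. It was in no list against vehicle. The window of the MS-275 gained Pml site was 55.7% repeat-masked sequence, where reads can map less uniquely.

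The other interferon members had MS-275 gained peaks outside promoters. Trim8, a modulator of NF-κB signalling, had a pair of summits 6464 and 6193 bp upstream, at folds of 2.56 and 3.38. Trim30a, a brake on Toll-like receptor signalling, had an intron summit at 29.7 (20.6 to 41.5) in MS-275 and 10.9 in vehicle. Trim12c had an intron summit 475 bp inside the gene, at 41.1 (30.2 to 54.6) over 18.6, and the same peak was counted for its neighbour Trim30b. Trim6, Trim12c, Trim30a and Trim30b belong to a cluster of 8 members on chromosome 7 (104218793 to 104507849), and 4 of the 8 had an MS-275 gained peak, from 4 distinct summits, beside 18.6% of all genes. Cluster members resemble each other in sequence, and how reads that map to several places were handled is not given in the sources used here. None of the 50-base stretches of the Trim6 and Trim12c peaks recurred in the cluster (0%), and 1.99% of those at Trim30a did. Repeats elsewhere in the genome were not compared, so unique mapping was not tested. Repeat-masked sequence made up 43.3% of the window at the Trim6 upstream summit and 47.8% at Trim30a. It made up 0% at the Trim6 intron summit and 11.9% at Trim12c, beside a median of 10.4% over the MS-275 gained list.

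Outside the interferon group, the promoter gains were at Trim27, Trim44, Trim67 and Trim69. Trim27, a nuclear ligase that represses transcription, had 2 promoter summits in 1 interval (chr13:21178233-21178788). The nearer, 782 bp before ENSMUSG00000021326.13, stood at 49.0 (37.0 to 63.6, 56 tags) in MS-275 and 13.1 in vehicle, a fold of 3.53 with a −log10 p of 13.5 and a −log10 q of 9.76. The farther, at 1113 bp, stood at 37.6 (27.2 to 50.6, 43 tags) over the same vehicle level, a fold of 2.74 with a −log10 p of 7.78 and a −log10 q of 4.70. Both summits of Trim27 lay over the antisense gene Gm47806, so the signal cannot be given to either gene alone.

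Trim67, a relative of the neuronal netrin-pathway ligase Trim9, had 3 MS-275 gained summits. The promoter summit (chr8:124792544-124792769), 455 bp before ENSMUSG00000036913.15, was weak, at 25.4 (17.0 to 36.4, 29 tags) over 10.6, a fold of 2.27 with a −log10 p of 4.34 and a −log10 q of 1.76. The others lay beyond the end of the gene, nearest to the TSS of 2810004N23Rik, and had the highest folds of any member. They were 4.55 (46.3, 34.7 to 60.6, over 9.4, −log10 p 17.7, −log10 q 13.4) and 4.68 (41.1, 30.2 to 54.6, over 8.0, −log10 p 16.6, −log10 q 12.5). The window of the latter was 61.7% repeat-masked. Trim44, which has a B-box but no RING finger, had a GC-rich site (chr2:102400781-102401093) 21 bp from an alternative TSS, with 38 CpGs and 84.1% GC. It stood at 55.1 (42.3 to 70.5, 63 tags) over 28.4, a fold of 1.91 with a −log10 p of 5.51 and a −log10 q of 2.75.

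Trim69, a microtubule-binding member, had the 1 promoter site found in both the MS-275 gained list and the direct list. The MS-275 gained summit (chr2:122156231-122156431) lay 4381 bp before ENSMUSG00000033368.8 and in an intron of Patl2. The level was 88.3 (71.9 to 107, 101 tags) in MS-275 and 27.6 in vehicle, a fold of 3.12 with a −log10 p of 19.8 and a −log10 q of 15.3. In the direct list (chr2:122156227-122156458) the level was 99.4 (80.9 to 121, 100 tags) in MS-275 and 29.2 in CXD101 at CXD101 depth, a fold of 3.33 with a −log10 p of 24.0 and a −log10 q of 18.1, which ranked 30 of 1650 peaks. At vehicle depth the CXD101 level was 25.7. MS-275 stood high at this site, and the control levels of vehicle and CXD101 were close together. A control level is the largest of several local averages, so equal accessibility at the summit was not tested. Trim16, which acts in the clearance of damaged membranes, was in the direct list only, 4777 bp before its start (chr11:62815336-62815555). It stood at 41.8 (30.1 to 56.4, 42 tags) in MS-275 and 11.4 in CXD101 at CXD101 depth, a fold of 3.45 with a −log10 p of 11.6 and a −log10 q of 7.76.

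The smaller role groups had MS-275 gained peaks outside promoters, apart from Trim67. Their counts are too small to set a group apart from the 18.6% of all genes. In the muscle RING finger group 2 of 3 members had one, Trim55 and Trim63, which mark muscle proteins for breakdown. The 3 Trim55 summits lay in introns at low levels, from 20.1 to 27.1 in MS-275 over 6.0 to 9.0 in vehicle. In the TIF1 group of transcription cofactors 1 of 4 members had one, Trim66, with summits 5649 and 8779 bp upstream at folds of 3.84 and 1.93. Among the NHL repeat members 1 of 4 did, Trim71, an RNA-binding protein of early embryos, through a site in an intron of Ccr4. Trim32, also of this group, had none in these lists, and the nearest MS-275 gained peak they hold was 184 kb away. The study, whose peak counts were larger, names Trim6 and Trim32 among genes with promoter peaks and raised expression after both inhibitors. Of these, Trim6 had a promoter peak in both gained lists here. Among the COS box members, which bind microtubules, 2 of 4 did, Trim46 and Trim67. The other members had 5 of 19, and Trim7 and Trim17 among them had summits within 55 and 5 bp of the TSSs of Irgm1, an interferon-induced GTPase, and the histone gene Hist3h2ba.

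Lost peaks lay at 3.7% of members for MS-275, beside 2.9% of all genes, and at 5.56% for CXD101, beside 3.62%. The lost lists were short, with 691 and 693 peaks. The members' lost peaks lay closer to the TSSs of other genes. Trim47 and Trim65, adjacent genes on chromosome 11 of which Trim65 activates the RNA sensor MDA5, shared 1 site in an intron of Fbf1. The vehicle level there was 25.0 (16.2 to 36.9, 25 tags) against 9.97 in MS-275, a fold of 2.37 with a −log10 p of 4.78 and a −log10 q of 1.52 (chr11:116146111-116146406). It was 28.0 (18.6 to 40.5, 28 tags) against 8.62 in CXD101, a fold of 3.02 with a −log10 p of 7.42 and a −log10 q of 3.86 (chr11:116146087-116146353). The summits were 21 bp apart and both comparisons used the same vehicle libraries. The TSS of Fbf1 was 872 bp from the former, and the start of Trim65 was 15139 bp away. Trim59 had a CXD101 lost peak (chr3:69017272-69017562) in an intron of Smc4, 634 bp from its TSS, at 19.0 (11.4 to 29.7, 19 tags) against 7.04, a fold of 2.49 with a −log10 p of 4.32 and a −log10 q of 1.35.

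The 32 members without a peak in any list were Trim2, Trim3, Trim9, Trim10, Trim11, Trim12a, Trim14, Trim15, Trim21, Trim23, Trim24, Trim25, Trim26, Trim28, Trim30c, Trim30d, Trim32, Trim33, Trim34a, Trim35, Trim36, Trim37, Trim39, Trim40, Trim41, Trim45, Trim50, Trim54, Trim56, Trim58, Trim62 and Trim68. Their distance to the nearest MS-275 gained peak had a median of 126 kb and ran from 22.2 kb at Trim30d to 862 kb at Trim24. It was over 100 kb for 18 of the 32.

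Of the 27 MS-275 gained summits, 8 counted for a member's promoter, 7 lay in a member's body and 14 lay in neither. The nearest TSS was a member's for 17 summits and another gene's for 10, among them both Trim66 sites, the pair beyond Trim67 and the Pml site. The 7 summits within 1 kb of a member's TSS had 1 to 38 CpGs in the 201-base window, with a median of 6. The other 20 had a median of 2.5, and the whole list had 2. The Trim6 upstream, nearer Trim27 and Trim13 promoter summits had 1 CpG each. Median GC was 45.3% at the 7 summits, 50.2% at the other 20 and 49.8% over the list.

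**Figure D4:**
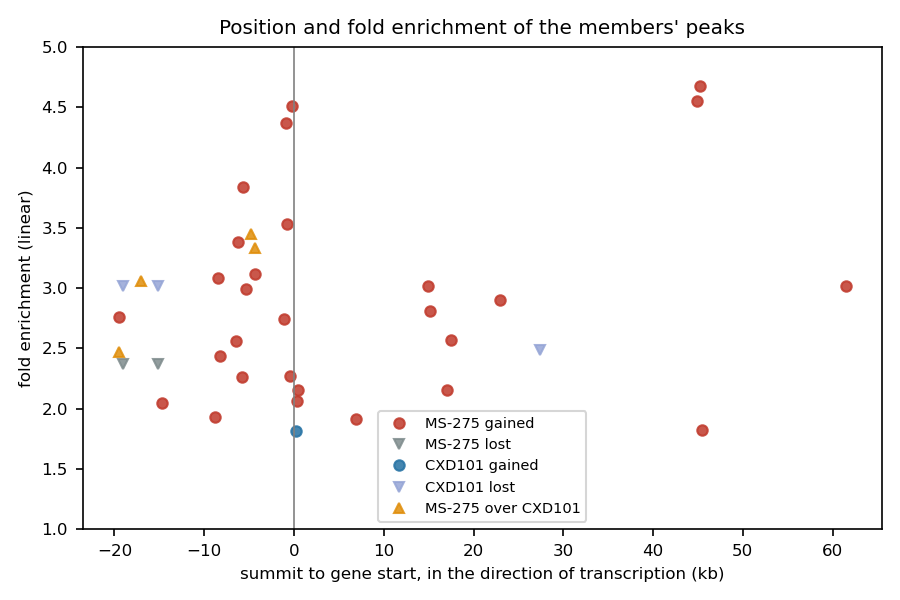
Fold over control of each member peak against its distance from the gene start, in kb along the direction of transcription, by list, with a peak of 2 members drawn for each. Folds above 4 are seen close to the start (Trim6 and Trim13) and beyond the end of Trim67.

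Motifs were searched within 100 bp of the summits on both strands. AP-1 (TGANTCA), the Fos and Jun element, was at 5 of the 27 MS-275 gained summits (18.5%, 95% Wilson interval 8.18 to 36.7), beside 4.55% of the list. They were those of Trim6 (upstream), Trim7, Trim63, Trim66 and Trim71. For all of these except the Trim6 summit, the nearest TSS was another gene's. The shared lost site of Trim47 and Trim65 also held an AP-1 match in both lost lists, and the lost site of Trim59 did not. Within 50 bp of the summits the AP-1 share was 11.1% (3.85 to 28.1), beside 2.17% of the list. The interferon response element (GAAANNGAA) was at 3 (11.1%, 3.85 to 28.1), beside 6.33%, namely Trim12c, Trim27 and Trim55. PU.1 (GAGGAAG) was at 3 beside 9.6% of the list, the GC box (GGGCGG) at 3 beside 10.6%, and C/EBP (TTGCNNAA) at 2 (7.41%) beside 9.02%. NRF1 (GCGCATGCG) and the E-box (CACGTG) were at none, beside 0.13% and 2.96%, and 3 of 27 summits would make 11.1%. With so few summits a single match moves a share widely, and a match describes letters, not binding.

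In the RefSeq promoters (GRCm38.p6, 250 bases before to 50 after a start), 42 of the 54 members had 56 promoters. The interferon response element was in 11 (19.6%), beside 8.56% of 32851 promoters, at 10 members that include Trim21, Trim25, Trim30a and Trim34a. Of those 10 members, 3 had an MS-275 gained peak in their window, beside 18.6% of all genes, and 0 had one in their promoter, beside 5.92%, which 10 genes are too few to tell apart from 0. The NRF1 element was in 7.14%, beside 1.75%, AP-1 in 16.1%, beside 7.81%, PU.1 in 19.6%, beside 13.6%, the GC box in 46.4%, beside 35.7%, C/EBP in 16.1%, beside 10.8%, and the E-box in 5.36%, beside 7.15%. Promoters of clustered relatives share sequence, so these shares are not independent.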

How the data were processed

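ATAC-seq peak lists were analysed for 6 libraries, 2 in each of 3 groups taken from the treatment labels. The authors aligned reads to mm10 with Bowtie2 and compared pooled groups with MACS2 2.2.7.1 at a shift of 0. The deposited fold enrichment is a linear ratio of treated to control pileup, the deposited significance is a −log10 p-value and a −log10 q-value, and the deposited summit is an offset in bases. The methods name a p-value threshold, but no deposited peak exceeded a q-value of 0.05. The shift of 0 leaves summits a few bases from the transposase cut. Reads per library were not used here.

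Each summit was 1 peak. An overlap of 1 base with the gene body or the 20 kb either side (GENCODE M21) assigned a peak, and a promoter was the 5 kb upstream of a TSS. Tags were recovered from fold (pseudocount 1) and Poisson p for all 11800 peaks, 11773 of them with 1 solution. In the test on simulated peaks, 410 of 410 were recovered (100%). The simulation used the same formulas as the recovery, so it cannot show that the deposited values follow them. Motif shares have 95% Wilson intervals and levels have exact 95% Poisson intervals. Every member with a peak was named, and full values were given for promoter peaks, members in 2 or more lists and the 5 member peaks with the highest −log10 p in each list. The members, role groups, pathway lists and motifs were chosen with earlier results of these data known. Alternatives were other windows, nearest TSS, a q-value under 0.001, a fold of at least 2, summits inside the window, and motifs within 50 bp. Python 3.11.15, numpy 2.4.6, pandas 2.3.3, scipy 1.17.1 and matplotlib 3.10.9 were used.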

Additional observations from a re-analysis of the deposited data

Results flagged for a closer look

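At 4 sites of 3 members the direct comparison of the inhibitors gave more signal in MS-275 than in CXD101. The folds were 3.45 at Trim16, 3.33 at Trim69, and 3.06 and 2.47 at Pml. They were marked because the same members differed between the inhibitors in the authors' own comparison of pooled libraries, which has no replicates.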

How the results depend on the processing

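Of 115 values under alternatives, 77 stayed within 1.5 times the value reported or within its interval, and 38 did not. The 77 include values reported as 0, which narrower or stricter settings could not change. Those were the CXD101 over MS-275 counts, the promoter counts of the lost lists, and the NRF1 and E-box shares. For MS-275 gained peaks, gene bodies alone gave 5 members and 7 peaks, 5 kb flanks gave 11 and 16, and the nearest-TSS rule gave 10 and 17. For MS-275 lost, gene bodies, 5 kb flanks, a q-value under 0.001 and the nearest-TSS rule each gave 0 members and 0 peaks, and 50 kb flanks gave 6 and 5. For CXD101 gained, 50 kb flanks gave 2 members, and a q-value under 0.001 or a fold of at least 2 gave 0 members, 0 peaks and 0 promoters. For CXD101 lost, gene bodies, 5 kb flanks and the nearest-TSS rule each gave 0 members and 0 peaks, and a q-value under 0.001 gave 1 peak. For MS-275 over CXD101, gene bodies gave 0 members and 0 peaks, 5 kb flanks and the nearest-TSS rule gave 2 peaks each, 50 kb flanks gave 6 members and 7 peaks, and promoters within 1 kb of a TSS gave 0. The GC box share within 50 bp was 0%. Wider or narrower windows hold more or fewer peaks by construction. No paired analysis was possible because libraries were pooled within each group, and leaving out a replicate could not be run for the same reason. Depth limits weak sites: at 19 tags the interval of the Trim59 site ran from 11.4 to 29.7.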

Other observations

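The partners of Trim ligases were followed in 3 lists of 31 genes, of which 5 (16.1%) had an MS-275 gained peak, beside 18.6% of all protein-coding genes. Among the 12 enzymes that activate and carry ubiquitin, 3 did (Ube2d1, Ube2d3 and Ube2n). Ube2n, which builds signalling chains with Ube2v1, was also in the MS-275 over CXD101 list. The nearest TSS was that of Cisd2 for both Ube2d3 summits and that of Nudt4 for both Ube2n summits. Ube2v1 was in the CXD101 lost list. Of the 5 genes of ISG15 conjugation, 1 did, Isg15 itself, the ubiquitin-like protein of the interferon response, with summits at -2161 and -2495 bp from its start at folds of 3.46 and 3.1, although the nearest TSS was that of AW011738. Of the 14 genes of RNA and DNA sensing, 1 did, Rnf125, a ligase that restrains RNA sensors. Ikbke, which encodes the kinase IKKε that Trim6 chains activate, had a lost peak at different sites in the MS-275 list (2.92-fold) and the CXD101 list (2.28-fold). Both of these summits lay within Srgap2. Ikbke also had an MS-275 over CXD101 promoter peak at 2.05. No gene of these lists had a CXD101 gained peak (0 of 31), beside 0.961% of all protein-coding genes. With 31 genes, 0 cannot be told apart from that share.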
